A study of Mus musculus with 6 samples.

Results

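The genes described here encode the collagens, the laminins and other proteins of the lung's extracellular matrix. They were taken as every non-control probe whose RefSeq symbol is a collagen chain (Col followed by its type and chain number) or a laminin chain (Lama, Lamb or Lamc), together with Fn1, Tnc, Lum, Dcn, Eln, Fbln1, Fbln5, Fbn1, Lox, Postn, Sparc and Vcan. RefSeq holds 67 symbols that fit, and 58 of them, 38 collagens, 9 laminins and 11 of the other genes, were matched to 90 probes among the 16358 named genes of the array. A gene was tested if it had a probe well above background on 2 or more of the 6 arrays, which held for 52 genes. The 6 not tested were Col6a6, Col9a1, Col10a1, Col11a1, Col19a1 and Col28a1, and the 9 symbols without a matched probe, Col6a3, Col6a4, Col6a5, Col12a1, Col20a1, Col22a1, Lama3, Lama5 and Vcan, were not analysed here.

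Whole-lung RNA came from C57BL/6 mice of 3 genotypes, WT, hCD2-T-bet tg/wt and hCD2-T-bet tg/tg, on 2 single-colour (Cy3) Agilent arrays each. The Tbx21 gene encodes T-bet, the transcription factor of the T helper 1 programme. The human CD2 elements in the transgene's name are used to drive genes in T cells, so the matrix-producing cells of the lung are not the cells the transgene was built for. The study concerns lung expression in alveolar proteinosis, a disease in which surfactant fills the air spaces. No age or sex is given in the sources used here, and nothing there says that the arrays of a group came from separate mice, so p-values here measure spread between arrays, which may be technical.

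Between 62.0% and 66.8% of an array's probes were well above background, and its 75th percentile, to which every level below is relative, ranged from 794 to 1204 intensity units. Tbx21 read -0.70 and -0.71 (log2) in WT, 1.30 and 1.34 in tg/wt, against 3.25 and 3.26 in tg/tg, in the order of the genotype labels. The labelled tissue carried its defining transcripts on every array, with Sftpb, a surfactant protein gene of alveolar type 2 cells, at 2.83 to 3.04 and Ager, a marker of alveolar type 1 cells, at 5.22 to 5.59. WT and tg/tg lay together on slide 1 and tg/wt alone on slide 2, so slide and group cannot be told apart in any comparison with tg/wt.

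Fibril-forming collagens are secreted as procollagens, trimmed outside the cell and assembled into the fibres that give tissue its tensile strength, while fibril-associated collagens decorate their surface. Collagen IV and the laminins build the 2 networks of basement membranes, the sheets beneath epithelium and endothelium and around muscle and fat cells. Elastin, laid on fibrillin microfibrils and crosslinked by lysyl oxidase, lets the alveolar wall recoil. In the adult lung these genes are made mostly by fibroblasts, smooth muscle, endothelium and epithelium.

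In tg/tg lungs matrix genes differed from WT in both directions. Of the 52 genes tested, 21 were higher and 23 lower (limma, Benjamini-Hochberg adjusted p under 0.05 over 12968 genes, here called), against a background of 33.8% of all genes called higher and 40.8% called lower. A call was common on these arrays, where 74.7% of all genes were called, so the count of called matrix genes alone says little about them. The median log2 difference of the 52 genes was -0.07, beside -0.05 over all genes tested. It ranged from -0.19 to 0.01 over the alternative settings. Among the called genes 9 were at least 2-fold higher and 10 at least 2-fold lower, where 10.9% and 12.3% of all genes passed the same limits. By role, 8 of 10 fibril-forming collagens were higher and 1 lower, 3 of 5 elastic fibre genes higher and 2 lower, 3 of 9 laminins higher and 5 lower, and 3 of 4 transmembrane collagens lower.

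**Figure D1:**
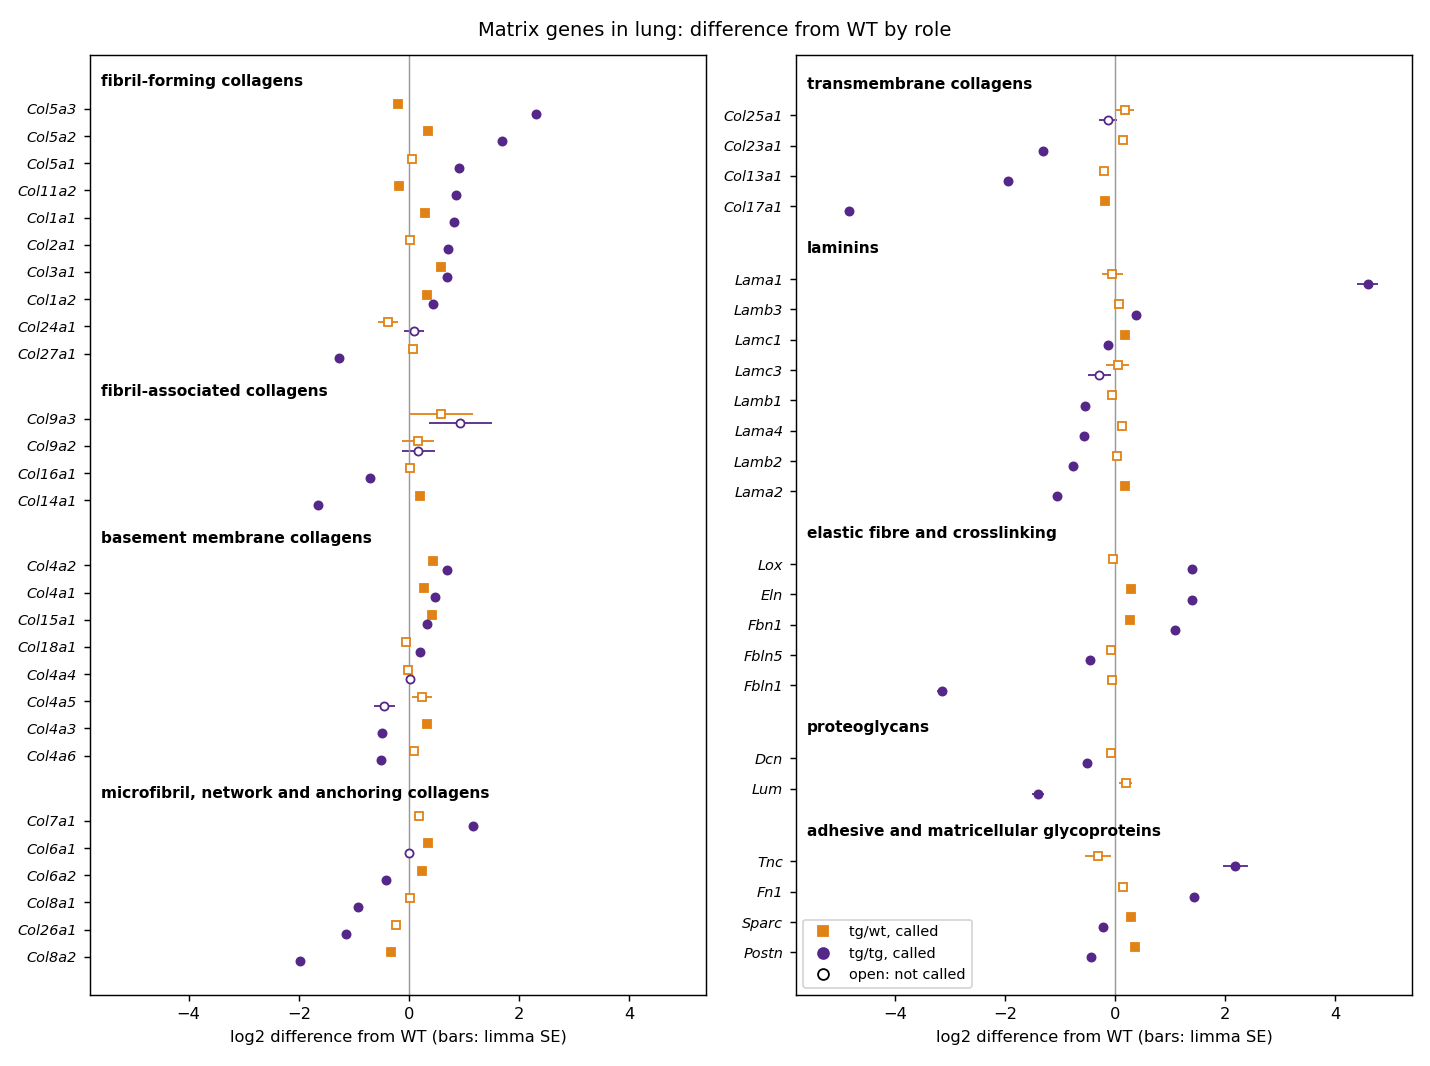
Log2 difference from WT of the tested matrix genes reported here, by role, for tg/wt (squares) and tg/tg (circles), filled where called and open where not, with limma standard errors as bars. The tg/tg differences run from -4.83 for Col17a1 to 4.59 for Lama1, whose WT signal was not well above background, while the called tg/wt differences stay between -0.33 and 0.58.

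Markers of several cell types moved as well. Lower in tg/tg than in WT were 8 of 8 smooth muscle and myofibroblast markers and 12 of 12 endothelial markers. So were 8 of 8 tested heart muscle, 6 of 7 tested fat and 8 of 12 fibroblast markers, beside 40.8% of all genes. Higher in tg/tg were 7 of 7 macrophage and 7 of 7 T cell markers, beside 33.8% of all genes. Of 8 alveolar type 2 markers 2 were higher and 2 lower, and none of 3 tested cartilage markers was called. In a whole-tissue sample fewer cells of a type and less RNA per cell cannot be told apart. How far any of these cell types or tissues contributed to a difference in matrix genes was not tested, here or where a list's summed level (log2 of the sum of its markers' signals, relative to the array's 75th percentile) is given beside a group of genes below.

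Among the fibril-forming collagens, Col5a1, Col5a2, Col5a3, Col1a1, Col1a2, Col3a1, Col2a1 and Col11a2 rose in tg/tg and Col27a1 fell. By each gene's brightest probe, the called rises were largest for Col5a3 and Col5a2, chains of collagen V, a regulator of fibre diameter. Col5a3 read -1.67 and -1.60 in WT, -1.80 and -1.88 in tg/wt, against 0.65 and 0.68 in tg/tg. The tg/tg arrays stood far above the other 4, and the difference from WT was 4.93-fold (log2 difference 2.30, SE 0.0477, limma adjusted p = 3.30e-06). Col5a2 read -0.08 and -0.09 in WT, 0.24 and 0.29 in tg/wt, against 1.57 and 1.62 in tg/tg, a 3.21-fold rise in tg/tg (1.68, SE 0.0379, limma adjusted p = 4.14e-06). Col5a1, the chain common to most collagen V molecules, read 1.84 and 1.83 in WT, 1.87 and 1.90 in tg/wt, against 2.72 and 2.76 in tg/tg, and rose 1.87-fold (0.90, SE 0.0358, limma adjusted p = 2.16e-05). WT and tg/tg arrays did not overlap for any of the 3 chains. How many of all genes separated in the same way is not given, so here and below separation only describes the arrays. The Col5a3 value comes from 1 probe, and a second stayed within background on all 6 arrays.

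Collagen I, the main fibre protein of the lung, and collagen III, its partner in distensible tissue, rose less. Col1a1 read 4.71 and 4.66 in WT, 4.98 and 4.97 in tg/wt, against 5.49 and 5.52 in tg/tg. All 4 arrays with the transgene lay above WT, and the tg/tg difference was 1.77-fold (0.82, SE 0.0350, limma adjusted p = 2.72e-05). Col3a1 read 4.59 and 4.62 in WT, 5.16 and 5.20 in tg/wt, against 5.24 and 5.35 in tg/tg. It exceeded WT 1.61-fold in tg/tg (0.69, SE 0.0485, limma adjusted p = 1.58e-04) and 1.49-fold in tg/wt (0.58, limma adjusted p = 2.71e-03). Between tg/tg and tg/wt the Col3a1 difference was 0.11 (SE 0.0485, limma adjusted p = 0.0863), which misses the threshold and does not show that the genotypes were alike. A dimmer Col3a1 probe, well above background on all 6 arrays, gave 0.45 for the same step (limma adjusted p = 3.50e-03 in a fit of single probes), and the mean of both probes gave 0.28 (limma adjusted p = 5.21e-03). Without tg/tg 1 the step was 0.17 and passed (limma adjusted p = 0.0314), the lone tg/tg array being assumed to vary like the other groups. Col1a2, the second chain of collagen I, read 5.79 and 5.87 in WT, 6.12 and 6.22 in tg/wt, against 6.33 and 6.22 in tg/tg, 1.36-fold above WT in tg/tg (0.45, SE 0.0603, limma adjusted p = 1.83e-03). With quantile normalization that difference was 0.18 and no longer passed (limma adjusted p = 0.0564).

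The rest of this class are chains known best from cartilage or made in small amounts. Col2a1 rose by 0.71 and Col11a2 by 0.86 in tg/tg on the log2 scale. None of the 3 tested cartilage markers, Sox9, Comp and Acan, was called in either comparison with WT, and their summed level was -2.83 to -2.06 in WT and -2.63 to -2.44 in tg/tg. Col11a2 rests on 1 of 2 probes, since the dimmer one, well above background on 3 arrays, read -0.15 (limma adjusted p = 0.498 in a fit of single probes). Col27a1 fell 2.41-fold, from -2.95 and -2.98 in WT to -4.18 and -4.30 in tg/tg (-1.27, SE 0.0724, limma adjusted p = 7.49e-05). For Col24a1 the brighter probe was not called (0.09, SE 0.183, limma adjusted p = 0.665), while a second probe, well above background on 2 of 6 arrays, read -7.42 and -7.34 in WT, -6.04 and -6.64 in tg/wt, against -2.94 and -3.20 in tg/tg. The probes of Col24a1 therefore disagree, and no single difference can be given for the gene.

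The fibroblast list had 6 of 12 markers higher and 0 lower in tg/wt (median 0.22), beside 13.4% and 14.6% of all genes. In tg/tg it had 3 higher and 8 lower (median -0.93), beside 33.8% and 40.8% of all genes. Its summed level was 8.68 to 8.71 in WT, 8.65 to 8.76 in tg/wt and 6.95 to 7.04 in tg/tg. That sum lies close to the level of 1 marker, the lung fibroblast gene Inmt, at 8.45 and 8.41 on the WT arrays and 8.36 and 8.48 on the tg/wt arrays. Inmt was 4.47 lower in tg/tg on the log2 scale. Tcf21, a transcription factor of lipid-laden lung fibroblasts, was 2.77 lower in tg/tg. Thy1, S100a4 and Fap were higher by 2.06, 1.42 and 0.70, and Thy1 and S100a4 are also made by T cells and macrophages. Smooth muscle and myofibroblast markers summed to 7.10 in WT, 7.16 in tg/wt and 5.90 to 5.91 in tg/tg, with Acta2, the actin of myofibroblasts, down by 0.81.

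**Figure D2:**
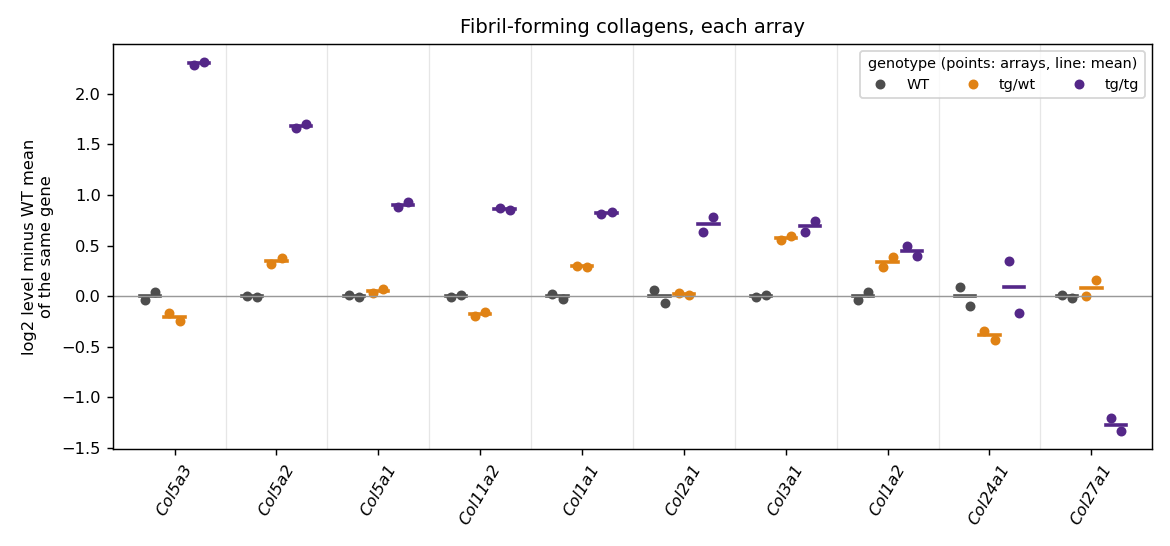
Log2 level of the 10 tested fibril-forming collagens on each array, minus the WT mean of the same gene, with points for arrays and lines for group means. Both tg/tg points of Col5a3, Col5a2, Col5a1, Col11a2, Col1a1, Col2a1, Col3a1 and Col1a2 lie above both WT points, and both of Col27a1 lie below.

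The promoters of 4 genes that were higher in tg/tg are shown because the genes read differently in tg/wt, where Col3a1 and Col1a2 were called higher, Col5a3 was called lower and Tnc was not called. These tg/wt readings were not firm: the calls of Col1a2 and Col5a3 were lost with some arrays left out, as given with the tg/wt results. The Tnc difference was -0.31 as reported and -0.65 without WT 2. With the mean of its probes Tnc was called lower (-0.57, limma adjusted p = 0.0306), but that mean brings in a dim second probe. This probe read -7.01 and -6.91 in WT and -8.00 and -7.58 in tg/wt. These values lie below the lowest signal that counted as well above background on each array. Each line gives the 250 bases before the most upstream start that RefSeq lists (GRCm38.p6), read 5′ to 3′ on the gene's strand. Capitals mark matches, on either strand, to TATAAA (the TATA box), to GGGCGG (the GC box), to TGACTCA (the AP-1 site), to TTCNNNGAA (the STAT site, N being any base) or to the letters of the CCAAT box. Col5a3 lies on the minus strand at chr9:20815068-20815317, Tnc on the minus strand at chr4:64047016-64047265, Col3a1 on the plus strand at chr1:45311288-45311537, and Col1a2 on the plus strand at chr6:4505368-4505617.
Col5a3: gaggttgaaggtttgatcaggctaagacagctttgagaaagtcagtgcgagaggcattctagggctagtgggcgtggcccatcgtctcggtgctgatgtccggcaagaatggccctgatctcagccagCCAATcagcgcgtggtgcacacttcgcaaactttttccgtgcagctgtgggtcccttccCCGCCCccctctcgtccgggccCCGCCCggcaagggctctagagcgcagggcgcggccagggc
Tnc: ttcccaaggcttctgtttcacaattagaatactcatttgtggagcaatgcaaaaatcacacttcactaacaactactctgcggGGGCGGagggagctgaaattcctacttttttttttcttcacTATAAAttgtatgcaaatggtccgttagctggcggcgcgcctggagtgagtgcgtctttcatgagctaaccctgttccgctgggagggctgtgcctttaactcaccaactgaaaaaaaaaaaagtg
Col3a1: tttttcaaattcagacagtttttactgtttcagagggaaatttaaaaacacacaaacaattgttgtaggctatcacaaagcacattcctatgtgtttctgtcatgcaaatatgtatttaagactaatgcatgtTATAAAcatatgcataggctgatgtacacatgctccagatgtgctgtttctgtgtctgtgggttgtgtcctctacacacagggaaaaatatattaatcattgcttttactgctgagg
Col1a2: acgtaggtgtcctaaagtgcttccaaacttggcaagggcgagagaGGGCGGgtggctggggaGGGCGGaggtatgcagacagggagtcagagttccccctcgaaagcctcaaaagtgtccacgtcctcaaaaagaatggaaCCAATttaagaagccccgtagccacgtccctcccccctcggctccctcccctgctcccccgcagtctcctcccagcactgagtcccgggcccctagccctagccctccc
Col5a3 holds 1 CCAAT box and 2 GC boxes, Tnc 1 TATA box and 1 GC box, Col3a1 1 TATA box, and Col1a2 1 CCAAT box and 2 GC boxes. Over the 41 matrix genes with a promoter entry, a GC box stood in 56.1% of windows, against 33% of 27025 genes of the same table. A TATA box stood in 14.6% against 13%, and a CCAAT box in 31.7% against 34.5%. An AP-1 site was found in 2.44% against 4.43%, in the window of Col6a1 alone, and a STAT site in 4.88% against 7.14%, in those of Col28a1 and Lamb2. A match is a run of letters and is given as a description.

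Of the 4 tested fibril-associated collagens, none was higher in tg/tg and 2, or 50%, were lower, beside 40.8% of all genes called lower. Col14a1, which coats fibres and limits their thickness, read 1.19 on both WT arrays, 1.39 and 1.41 in tg/wt, against -0.51 and -0.41 in tg/tg. It was 3.14-fold lower in tg/tg (-1.65, SE 0.0436, limma adjusted p = 6.25e-06) with no overlap between the groups. Col16a1 fell 1.64-fold in tg/tg (-0.71, SE 0.0317, limma adjusted p = 3.22e-05). Col9a2 and Col9a3, chains of the cartilage collagen IX, were dim, between -5.69 and -3.79 on all arrays, and neither was called.

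Of the 6 chains of collagen IV, Col4a1 and Col4a2, found in nearly every basement membrane, were higher in tg/tg, Col4a3 and Col4a6 were lower, and Col4a4 and Col4a5 were not called. Col4a2 read 3.33 and 3.40 in WT, 3.76 and 3.86 in tg/wt, against 4.09 and 4.02 in tg/tg, 1.61-fold above WT in tg/tg (0.69, SE 0.0565, limma adjusted p = 2.77e-04). Col4a1 read 3.16 and 3.14 in WT, 3.37 and 3.47 in tg/wt, against 3.66 and 3.58 in tg/tg, 1.38-fold above WT in tg/tg (0.47, SE 0.0514, limma adjusted p = 8.38e-04). For both of these probes the 3 groups did not overlap, with tg/wt between the others. The tg/wt call of Col4a1 (0.27, limma adjusted p = 0.0221) was lost without WT 1 (0.28), WT 2 (0.26) or tg/wt 2 (0.22). It was also lost with the replicate block (limma adjusted p = 0.0515). The step from tg/wt to tg/tg was 0.25 for Col4a2 (limma adjusted p = 0.0126) and 0.19 for Col4a1 (limma adjusted p = 0.0209). Without tg/wt 1 it was 0.19 and 0.15, and without tg/tg 1 it was 0.21 and 0.15, and neither gene passed in either case (limma adjusted p = 0.0548 to 0.0858). With quantile normalization it was 0.11 and 0.086 and did not pass (limma adjusted p = 0.148 and 0.186). A second Col4a2 probe, well above background on all 6 arrays, read 2.79 and 2.86 in tg/wt against 2.86 on both tg/tg arrays, a step of 0.037 (limma adjusted p = 0.450 in a fit of single probes), although it too was higher in tg/tg than in WT (0.59).

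Col4a3, Col4a4 and Col4a5 form the collagen IV of thin, strong membranes such as the alveolar one, and Col4a6 belongs to a further form found around smooth muscle and some epithelia. Col4a3 read 0.49 and 0.48 in WT, 0.83 and 0.80 in tg/wt, against -0.03 and 0.01 in tg/tg, lowest in tg/tg and highest in tg/wt. Its tg/tg difference was 1.41-fold (-0.49, SE 0.0350, limma adjusted p = 1.65e-04) and its tg/wt difference 1.26-fold upward (0.33, limma adjusted p = 4.98e-03). Col4a4 read between 1.55 and 1.60 on all 6 arrays and was called in no comparison, with a tg/tg difference of 0.02 (SE 0.0338, limma adjusted p = 0.666). Col4a5 read -1.46 on both WT arrays, -1.18 and -1.27 in tg/wt, against -1.62 and -2.19 in tg/tg. The tg/tg arrays lay below WT, far apart from each other, and the difference was not called (-0.45, SE 0.188, limma adjusted p = 0.0850), while without tg/tg 1 it was -0.73 (limma adjusted p = 1.06e-03). In that fit the gap between the tg/tg arrays is gone and the lone array is assumed to vary like the other groups. Col4a6 fell from -2.09 and -2.17 in WT, with -2.03 on both tg/wt arrays, to -2.62 and -2.64 in tg/tg (-0.50, SE 0.0399, limma adjusted p = 2.45e-04). A dimmer Col4a6 probe, well above background on 4 arrays, read -3.84 and -3.81 in WT, against -6.58 and -7.33 in tg/tg. Its tg/tg values lie below the lowest signal that counted as well above background on those arrays (-5.39 and -5.22). It passed the filter only through WT and tg/wt, where it was high, so its fall of 3.13 is not a measured size.

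Col4a1 and Col4a2 lie head to head, and their start is shown because both genes were higher in tg/tg. Col4a2 starts at base 11312805 of chromosome 8 on the plus strand and Col4a1 at base 11312826 on the minus strand (RefSeq, GRCm38.p6). The first bases of both transcripts are therefore complementary strands of the same 22 bases, chr8:11312805-11312826, written on the plus strand. These bases hold the letters GGGCGG of the GC box, left in lower case because matches were not marked in this stretch.
Col4a1 and Col4a2: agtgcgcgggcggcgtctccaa
The starts of Col4a5 and Col4a6 on chromosome X lie 1343 bases apart and share no bases.

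Collagens XV and XVIII, proteoglycan-like collagens at the outer face of basement membranes, were both higher in tg/tg. Col15a1 read -2.44 and -2.57 in WT, -2.13 and -2.05 in tg/wt, against -2.13 and -2.21 in tg/tg. Both transgenic genotypes lay above WT, by 0.41 in tg/wt (limma adjusted p = 0.0139) and 0.33 in tg/tg (limma adjusted p = 6.94e-03), and they overlapped each other. The tg/wt call was lost without WT 2 (0.35, limma adjusted p = 0.0586) and without tg/wt 2 (0.37, limma adjusted p = 0.0726). Col18a1, the source of endostatin, was 1.15-fold higher in tg/tg (0.20, SE 0.0389, limma adjusted p = 6.58e-03).

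**Figure D3:**
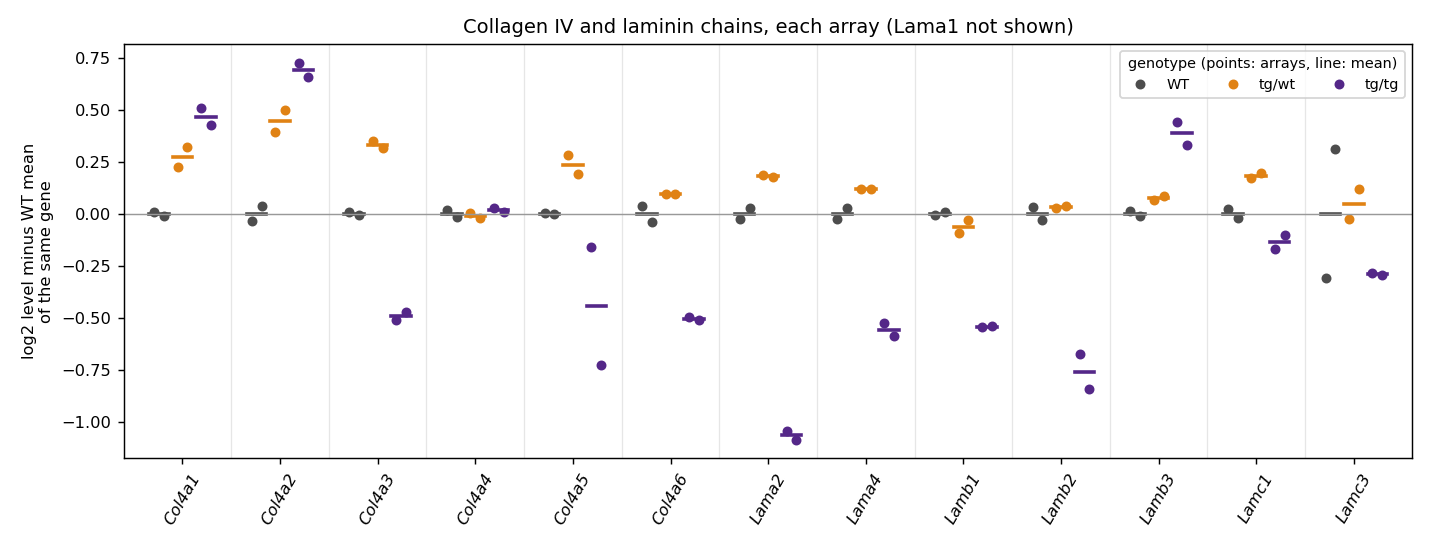
Log2 level of the 6 collagen IV chains and of the laminin chains reported here other than Lama1 on each array, minus the WT mean of the same gene, with points for arrays and lines for group means. Col4a1 and Col4a2 step up from WT over tg/wt to tg/tg, Col4a4 reads close to WT in every group, and the tg/tg points of Lama2, Lama4, Lamb1 and Lamb2 lie below both other groups.

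Of the 9 tested laminin chains 3 were higher and 5 lower in tg/tg. Lama2, the alpha chain of muscle and peripheral nerve, read 0.08 and 0.13 in WT, 0.29 on both tg/wt arrays, against -0.94 and -0.98 in tg/tg, a 2.09-fold fall in tg/tg (-1.07, SE 0.0372, limma adjusted p = 1.45e-05). Lama4, the alpha chain of vessels and fat, read 1.61 and 1.66 in WT, 1.75 on both tg/wt arrays, against 1.11 and 1.04 in tg/tg (-0.56, SE 0.0408, limma adjusted p = 1.85e-04). Its 3 probes gave -0.56 to -0.60. Lamb2 read 3.61 and 3.55 in WT, 3.61 and 3.62 in tg/wt, against 2.90 and 2.74 in tg/tg, and Lamb1 read 1.41 and 1.43, 1.32 and 1.39, and 0.87 and 0.88 in the same order. These beta chains fell 1.69-fold (-0.76, SE 0.0649, limma adjusted p = 3.24e-04) and 1.46-fold (-0.54, SE 0.0370, limma adjusted p = 1.40e-04), and in all 4 genes the tg/tg arrays lay below the others.

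Lamc1, the gamma chain common to most laminins, moved little. It read 4.01 and 3.97 in WT, 4.16 and 4.19 in tg/wt, against 3.82 and 3.89 in tg/tg, and was 1.10-fold lower in tg/tg (-0.14, SE 0.0404, limma adjusted p = 0.0304). That call was lost without WT 1 (-0.12), WT 2 (-0.16), tg/wt 1 or tg/wt 2 (-0.14 in both) and tg/tg 1 (-0.10), with limma adjusted p = 0.0537 to 0.145. Lamb3, a beta chain of the laminin that anchors epithelium, read 1.91 and 1.89 in WT, 1.97 and 1.98 in tg/wt, against 2.34 and 2.23 in tg/tg. It rose 1.31-fold in tg/tg (0.39, SE 0.0476, limma adjusted p = 1.27e-03), with both tg/tg arrays above all others, and was not called in tg/wt.

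Lama1, the alpha chain of embryonic basement membranes, stood well above background in tg/tg alone, at -2.81 and -2.94. In WT it read -7.20 and -7.73 and in tg/wt -7.45 and -7.58, not well above background on any of those 4 arrays. Its level in tg/tg was therefore at least 6.34-fold higher than the WT level (limma adjusted p = 2.29e-05) and at least 6.24-fold higher than in tg/wt (limma adjusted p = 2.48e-05). A single probe carries this result. It passed the filter only through the 2 tg/tg arrays, where it was high, so its p-values and its call among the laminins rest on that choice. With normexp background correction the tg/tg difference from WT was 1.52 on the log2 scale (limma adjusted p = 1.81e-04), which lies under the bound against WT. That bound therefore does not hold with this correction. The lowest tg/tg difference from tg/wt over the alternatives was 1.65 on the log2 scale. This lies under the bound against tg/wt, so that bound does not hold under every alternative either. Each bound sets the mean of the bright group against the lowest signal that counted as well above background on each array of the dim group. Lamc3 was dim, between -5.63 and -5.01 on all arrays, and not called (-0.29, SE 0.209, limma adjusted p = 0.260). Its second probe, well above background on 3 arrays, read -5.29 on both WT arrays, against -6.68 and -6.47 in tg/tg. Those tg/tg values lie below the lowest signal that counted as well above background there (-5.39 and -5.22). The second probe's fall of 1.28 is therefore not a measured size. For the first, the difference was -0.60 without WT 1 (limma adjusted p = 4.34e-03) and 0.020 without WT 2 (limma adjusted p = 0.842), each with 1 WT array assumed to vary like the other groups.

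Endothelial markers, which mark a cell that lies on much of this matrix, summed to 8.33 in WT, 8.16 to 8.19 in tg/wt and 6.90 to 6.91 in tg/tg, and heart muscle markers to 7.85 to 7.87, 6.82 to 6.83 and 3.75 to 3.79. Kdr, the main VEGF receptor, was 1.70 lower in tg/tg and Myh6, the atrial myosin, 3.93 lower. Fat markers summed to 4.74 to 4.80 in WT, 4.16 to 4.21 in tg/wt and 0.30 to 0.39 in tg/tg, where Retn and Pck1 were not well above background. Each of these lists summed lower in tg/tg, where Lama2, Lama4, Lamb1 and Lamb2 were lower and Col4a1 and Col4a2 higher.

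The transmembrane collagens, which stay anchored in the cell that makes them, held the largest fall of all matrix genes on the 75th percentile scale. Col17a1, the hemidesmosome collagen of basal epithelial cells, read -0.18 and -0.19 in WT, -0.33 and -0.39 in tg/wt, against -5.00 and -5.02 in tg/tg. It was 28.4-fold lower in tg/tg (-4.83, SE 0.0367, limma adjusted p = 6.38e-07), with 1 of the 2 tg/tg arrays well above background. With normexp background correction Col17a1 fell by 3.05 and Fbln1, next in order, also by 3.05, so the size of the Col17a1 fall and its place depend on how dim signals are treated. A dimmer second Col17a1 probe read -4.16 and -4.06 in WT, against -7.57 and -7.36 in tg/tg. Its tg/tg values lie below the lowest signal that counted as well above background on those arrays (-5.39 and -5.22). The probe passed the filter only through WT and tg/wt, where it was high, so its fall of 3.35 is not a measured size. Col13a1, made at cell junctions, read 3.09 and 3.06 in WT, 2.93 and 2.83 in tg/wt, against 1.07 and 1.19 in tg/tg, 3.85-fold lower in tg/tg (-1.94, SE 0.0595, limma adjusted p = 9.61e-06). Col23a1 read 0.58 and 0.57 in WT, 0.76 and 0.69 in tg/wt, against -0.72 and -0.76 in tg/tg, 2.49-fold lower (-1.32, SE 0.0421, limma adjusted p = 1.10e-05). In all 3 genes the tg/tg arrays lay below every other array, and Col25a1, the fourth, was dim and not called (-0.13, SE 0.169, limma adjusted p = 0.516).

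Col17a1 is set beside markers of airway epithelium, where its basal cells lie. Krt5, the keratin of basal cells, read -2.34 and -2.35 in WT, -3.97 and -3.84 in tg/wt, against -3.08 and -4.13 in tg/tg, and Trp63, their transcription factor, read -4.07 and -4.11, -4.88 and -4.76, and -4.23 and -4.18. Krt5 was called lower in tg/wt (-1.56, limma adjusted p = 0.0324) and in tg/tg (-1.26, limma adjusted p = 0.0226). Trp63 was called lower in tg/wt (-0.73, limma adjusted p = 1.85e-03) and not in tg/tg (-0.12, limma adjusted p = 0.0953), while Col17a1 was called lower in both (-0.18 and -4.83). The airway list as a whole fell in 6 of 7 tested markers, beside 40.8% of all genes. It summed to 9.70 to 9.73 in WT, 9.39 to 9.66 in tg/wt and 8.55 to 8.72 in tg/tg. Its brightest markers were Scgb1a1 (8.87 and 8.86 in WT) and Cyp2f2 (8.28 and 8.24 in WT). Krt5 and Trp63 lay far below these, so the sum says little about basal cells. The Col17a1 window is shown because of the size of this fall, on the minus strand at chr19:47692043-47692292, with capitals as above for 2 TATA boxes and 1 CCAAT box.
Col17a1: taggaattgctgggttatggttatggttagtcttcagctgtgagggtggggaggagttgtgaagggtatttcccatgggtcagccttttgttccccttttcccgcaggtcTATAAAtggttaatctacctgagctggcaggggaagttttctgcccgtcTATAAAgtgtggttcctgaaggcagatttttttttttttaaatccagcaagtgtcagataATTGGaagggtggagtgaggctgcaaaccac

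Of 6 tested genes for microfibril, network and anchoring collagens, Col7a1 rose in tg/tg and 4 fell. These are 16.7% higher and 66.7% lower, beside 33.8% and 40.8% of all genes tested. Col7a1, the anchoring fibril that ties epithelium to stroma, read 1.49 and 1.47 in WT, 1.61 and 1.73 in tg/wt, against 2.64 and 2.65 in tg/tg, a 2.25-fold rise (1.17, SE 0.0517, limma adjusted p = 3.14e-05). Both chains of the vessel collagen VIII fell. Col8a2 read -0.24 and -0.34 in WT, -0.58 and -0.65 in tg/wt, against -2.28 and -2.25 in tg/tg, 3.94-fold lower in tg/tg (-1.98, SE 0.0518, limma adjusted p = 6.13e-06). Col8a1 fell by 0.93 in tg/tg (SE 0.0515, limma adjusted p = 6.69e-05). Col26a1 read -2.96 and -2.99 in WT, -3.13 and -3.28 in tg/wt, against -4.15 and -4.07 in tg/tg, a 2.20-fold fall (-1.14, SE 0.0639, limma adjusted p = 7.16e-05).

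Collagen VI, the beaded microfibril around cells, gave different values in its measured chains. Col6a1 was called higher in tg/wt (0.34, limma adjusted p = 0.0159) and was not called in tg/tg (-0.01, SE 0.0562, limma adjusted p = 0.940). Col6a2 was higher in tg/wt (0.23, limma adjusted p = 0.0110) and 1.33-fold lower in tg/tg (-0.41, SE 0.0331, limma adjusted p = 2.54e-04).

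The core elastic fibre genes rose in tg/tg while the fibulins fell. Eln, encoding elastin, read -0.38 on both WT arrays, -0.11 and -0.07 in tg/wt, against 0.96 and 1.06 in tg/tg, a 2.63-fold rise (1.39, SE 0.0464, limma adjusted p = 1.25e-05). Fbn1, encoding the microfibril protein fibrillin-1, read 0.81 and 0.87 in WT, 1.11 and 1.12 in tg/wt, against 1.92 on both tg/tg arrays, a 2.11-fold rise (1.08, SE 0.0369, limma adjusted p = 1.37e-05). Lox, the lysyl oxidase that crosslinks elastin and collagen, read -1.32 and -1.29 in WT, -1.39 and -1.29 in tg/wt, against 0.17 and 0.02 in tg/tg, a 2.64-fold rise (1.40, SE 0.0661, limma adjusted p = 3.88e-05). All 3 genes stood higher on both tg/tg arrays than on any other, and tg/wt lay between for Eln and Fbn1 and at WT for Lox.

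Fbln1, a fibulin of microfibrils and basement membranes, had the second largest fall of the 52 genes on the same scale. It read 2.49 and 2.52 in WT, 2.43 and 2.44 in tg/wt, against -0.78 and -0.53 in tg/tg, 8.90-fold lower in tg/tg (-3.15, SE 0.0884, limma adjusted p = 7.33e-06). Fbln5, which brings elastin to the cell surface, fell 1.38-fold (-0.46, SE 0.0446, limma adjusted p = 4.97e-04). Neither was called in tg/wt.

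The measured proteoglycans, small leucine-rich proteins that bind collagen fibres, both fell. Lum read 0.76 and 0.66 in WT, 0.73 and 1.06 in tg/wt, against -0.67 and -0.72 in tg/tg, 2.64-fold lower (-1.40, SE 0.115, limma adjusted p = 2.79e-04). Dcn fell 1.43-fold, from 5.23 and 5.22 to 4.72 and 4.70 (-0.51, SE 0.0320, limma adjusted p = 1.04e-04). The 2 tg/tg arrays lay below all others for both genes, and neither gene was called in tg/wt.

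The adhesive glycoproteins went apart, with Fn1 and Tnc higher and Sparc and Postn lower in tg/tg. Tnc, encoding the repair-associated tenascin-C, read -1.72 and -2.41 in WT, -2.32 and -2.43 in tg/wt, against 0.05 and 0.19 in tg/tg, a 4.54-fold rise (2.18, SE 0.231, limma adjusted p = 7.24e-04). The WT arrays lay further apart than in most genes, yet the tg/tg arrays stood above all others. Fn1, encoding fibronectin, read 1.81 and 1.89 in WT, 1.92 and 2.07 in tg/wt, against 3.29 and 3.28 in tg/tg, a 2.69-fold rise (1.43, SE 0.0638, limma adjusted p = 3.23e-05). Its 3 probes rose by 1.12 to 1.66 in tg/tg, but in tg/wt the dimmer 2 were called in opposite directions, at 0.24 and -0.36 (limma adjusted p = 0.0385 and 0.0161 in a fit of single probes).

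Postn and Sparc, both collagen-binding matricellular proteins, read highest in tg/wt and lowest in tg/tg. Postn read 3.71 and 3.78 in WT, 4.10 on both tg/wt arrays, against 3.28 and 3.33 in tg/tg (-0.44, SE 0.0411, limma adjusted p = 4.50e-04). Sparc read 5.86 and 5.84 in WT, 6.17 and 6.12 in tg/wt, against 5.61 and 5.63 in tg/tg (-0.22, SE 0.0342, limma adjusted p = 2.81e-03). A second Sparc probe of similar brightness also fell by 0.22 in tg/tg. In tg/wt it was not called (0.10, limma adjusted p = 0.162 in a fit of single probes), so the Sparc rise there depends on the probe. Macrophage markers, which include cells that can make fibronectin, summed to 3.16 to 3.20 in WT, 3.89 to 3.90 in tg/wt and 7.16 to 7.21 in tg/tg.

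**Figure D4:**
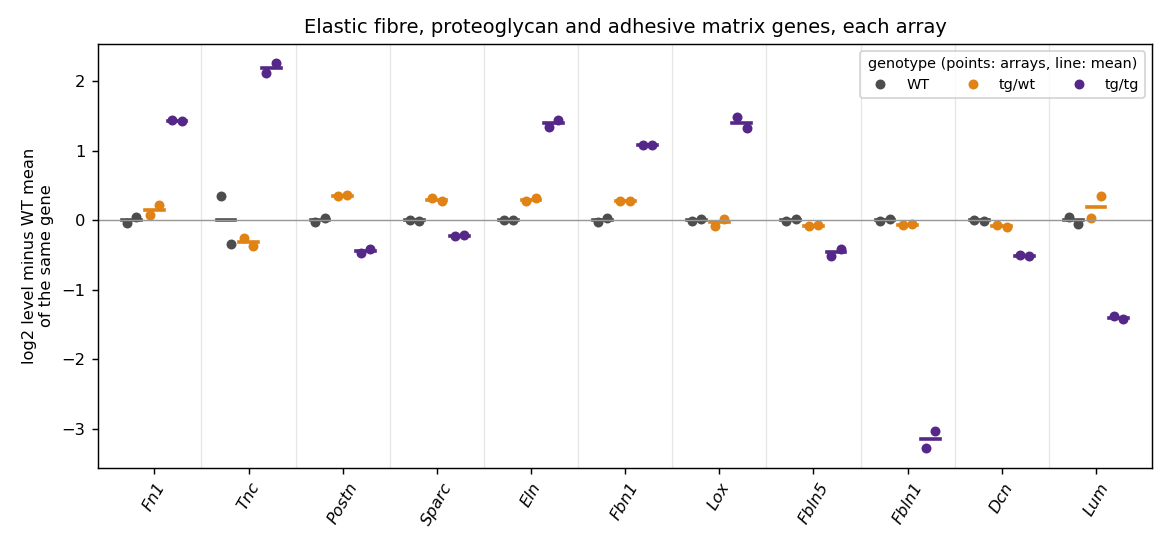
Log2 level of the elastic fibre, proteoglycan and adhesive matrix genes on each array, minus the WT mean of the same gene, with points for arrays and lines for group means. Tnc, Fn1, Eln, Lox and Fbn1 stand above WT in tg/tg, Fbln1 lies 3.15 below, and Postn and Sparc lie above WT in tg/wt and below it in tg/tg.

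In tg/wt against WT the differences were small. Of the 52 genes 17 were higher and 4 lower, against a background of 27.9% of all genes called, 13.4% higher and 14.6% lower, and the median difference was 0.11 beside -0.0050 over all genes. That median ranged from 0.051 to 0.17 over the alternatives and was lowest without tg/wt 2. The largest called difference was the 1.49-fold rise of Col3a1. The largest rises were those of Col3a1 (0.58), Col4a2 (0.44, SE 0.0565, limma adjusted p = 7.98e-03), Col15a1 (0.41), Postn (0.35, SE 0.0411, limma adjusted p = 6.35e-03) and Col5a2 (0.35, SE 0.0379, limma adjusted p = 5.34e-03). The genes called lower were Col8a2 (-0.33), Col5a3 (-0.20, limma adjusted p = 0.0376), Col17a1 (-0.18, limma adjusted p = 0.0269) and Col11a2, which read -3.00 and -2.98 in WT, -3.18 and -3.15 in tg/wt, against -2.12 and -2.13 in tg/tg (-0.18, limma adjusted p = 0.0223). All of these differences lay within 1.5-fold of WT, and the groups were apart by more than their 2 arrays were.

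Fewer tg/wt calls passed with an array left out, with 8 higher and 0 lower without WT 1, 8 and 2 without WT 2, 14 and 2 without tg/wt 1, and 7 and 0 without tg/wt 2. Calls over all genes fell in the same fits, from 1732 higher and 1887 lower to 746 to 919 higher and 595 to 888 lower. Each of these fits has 1 array in a group, assumed to vary like the others. Of the genes given array by array here, Col3a1, Col4a2, Col5a2, Col1a1, Col4a3 and Postn kept their call under every alternative tried. Col8a2 lost it without WT 1 (-0.28) or tg/wt 2 (-0.29), and Col4a1 without WT 1 (0.28), WT 2 (0.26) or tg/wt 2 (0.22). Col1a2 lost it without WT 1 (0.30), WT 2 (0.37) or tg/wt 2 (0.29), with limma adjusted p = 0.0631 to 0.0974. Col5a3, Col17a1 and Col11a2 each lost it whichever WT or tg/wt array was left out, at -0.24 to -0.16, -0.21 to -0.15 and -0.19 to -0.16. Among the smaller rises, those of Col14a1 (0.21, limma adjusted p = 0.0281), Lama2 (0.18, limma adjusted p = 0.0274) and Lamc1 (0.18, limma adjusted p = 0.0324) were lost in the same 4 cases, at 0.20 to 0.22, 0.16 to 0.21 and 0.16 to 0.20. Eln (0.29, limma adjusted p = 0.0141) was lost in these cases too, at 0.27 to 0.32. Several marker lists moved in tg/wt too. Lower were 8 of 8 tested heart muscle, 5 of 7 fat, 4 of 5 mesothelium and 4 of 7 airway markers, beside 14.6% of all genes. Higher were 6 of 7 macrophage and 6 of 7 T cell markers, beside 13.4% of all genes.

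From tg/wt to tg/tg collagen V and the elastic fibre core were higher and Col14a1, Lama2 and Col4a3 lower. Of the 52 genes 18 were higher and 25 lower in tg/tg than in tg/wt, against a background of 74.2% of all genes called, 34.0% higher and 40.2% lower, with a median of -0.32 beside -0.05 over all genes tested. That median ranged from -0.36 to -0.037 over the alternatives, and with normexp it was -0.037 beside -0.026 over all genes. It was -0.19 without tg/tg 2. This comparison is also the test of whether the difference from WT was the same in both transgenic genotypes, and it shares arrays with each of the others. Col5a3 (2.50, SE 0.0477, limma adjusted p = 3.25e-06), Col5a2 (1.33) and Eln (1.10) were higher in tg/tg, and Col14a1 (-1.86, SE 0.0436, limma adjusted p = 5.53e-06), Lama2 (-1.25) and Col4a3 (-0.82) lower. Col1a2 (0.11, SE 0.0603, limma adjusted p = 0.162) and Col3a1 (by its brightest probe) were not called, and with quantile normalization the Col1a2 difference was -0.27 (limma adjusted p = 0.0164).

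The enzymes that fold, trim and crosslink collagen went both ways in tg/tg against WT. Of 18 genes for folding and hydroxylation, 8 were higher and 9 lower, or 44.4% and 50%, beside 33.8% and 40.8% of all genes tested. None of the related lists here was tested against other genes. Colgalt2, a collagen galactosyltransferase, fell 11.8-fold from 0.05 and 0.00 in WT to -3.46 and -3.61 in tg/tg (-3.56, SE 0.0591, limma adjusted p = 1.90e-06). P3h2, a prolyl 3-hydroxylase, fell 3.16-fold, and P4ha3, a prolyl 4-hydroxylase subunit not well above background in WT, was at least 1.52-fold higher. Of 4 tested procollagen processing genes, the proteinase gene Bmp1 rose (0.61) and its enhancers fell, with Pcolce2 18.0-fold lower, from 5.35 and 5.36 to 1.11 and 1.26 (-4.17, SE 0.0573, limma adjusted p = 1.26e-06), and Pcolce 2.39-fold lower. Of 6 crosslinking enzymes 4 were higher, led by the transglutaminase Tgm1 (7.12-fold, log2 difference 2.83, SE 0.0481, limma adjusted p = 2.01e-06), and Loxl1, the lysyl oxidase relative of elastic fibres, was lower (-0.46).

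Among other genes of the basement membrane and elastic fibre, 75% and 66.7% were called lower, beside 40.8% of all genes. Of 12 tested basement membrane genes beyond collagen IV and laminins, 1 was higher and 9 lower, among them Fras1 (7.79-fold, log2 difference -2.96) and the netrin gene Ntn4 (4.64-fold), and Frem2 was at least 2.84-fold lower, not well above background in tg/tg. Of 15 elastic fibre and microfibril genes 3 were higher, led by Ltbp2 (3.61-fold), and 10 lower, led by the TGF-beta-binding gene Ltbp4 (7.91-fold, from 6.31 and 6.18 in WT to 3.19 and 3.33 in tg/tg) and the fibulin-3 gene Efemp1 (5.47-fold). Eln, Fbn1 and Lox thus rose in lungs where most other tested genes of the elastic fibre were lower.

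Of 16 tested further proteoglycan genes 4 were higher, led by the hyaluronan synthase Has2 (11.9-fold, log2 difference 3.57), and 8 lower, led by Ogn (8.92-fold). These are 25% higher and 50% lower, beside 33.8% and 40.8% of all genes tested. Of 18 tested further matricellular genes 8 were higher and 8 lower, or 44.4% each way, beside the same shares of all genes. Tgfbi rose by 3.36 and Spp1, encoding osteopontin, by 3.17 on the log2 scale, both genes that macrophages make, while Tnxb, encoding the fibre-spacing tenascin-X, fell 17.4-fold from 2.83 and 2.75 in WT to -1.30 and -1.37 in tg/tg (-4.12, SE 0.0523, limma adjusted p = 1.09e-06). Of the tenascins tested, Tnc was thus higher and Tnxb and Tnn (-1.85) lower.

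**Figure D5:**
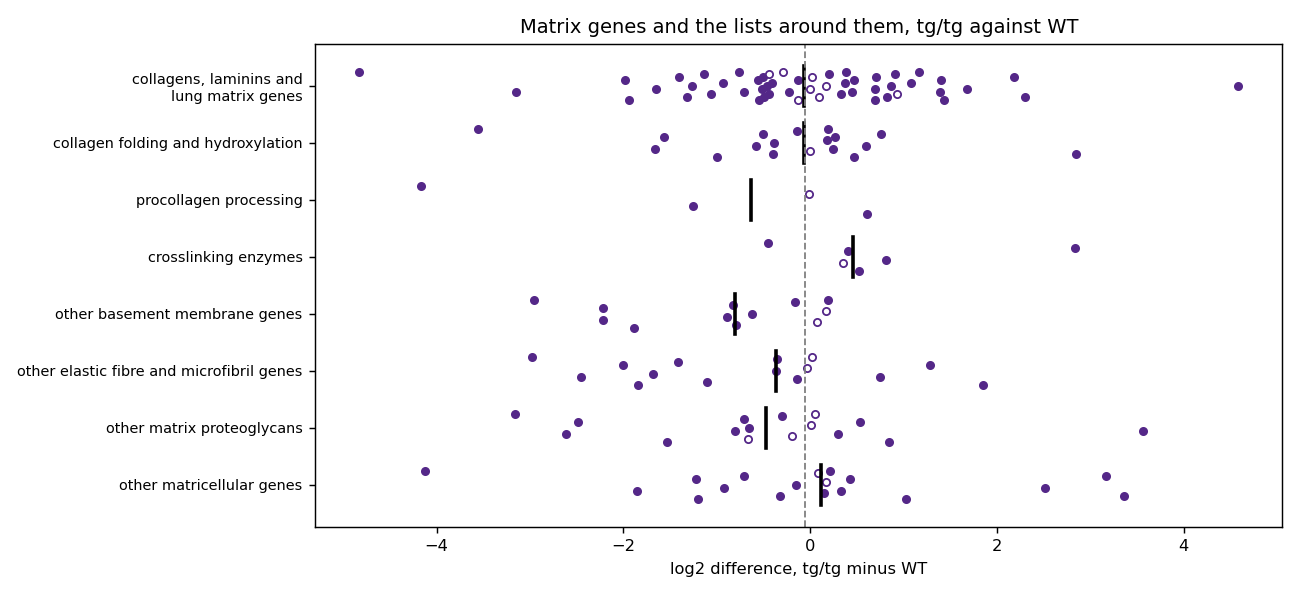
Log2 difference of tg/tg from WT for each tested gene of the matrix group and of 7 related lists, filled where called, with a black bar at each list's median and a dashed line at the median of all genes tested. The median lies at 0.46 for crosslinking enzymes and at -0.81 for other basement membrane genes, beside -0.05 over all genes tested.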

How the data were processed

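Lung RNA of 6 samples was labelled with Cy3 and hybridised singly, per the labels' protocols. The deposited intensity values are processed signals, background-subtracted and detrended within an array and not scaled between arrays, extracted with Agilent Feature Extraction 9.5.3.1 per the file headers (9.1 per the submitters' processing notes). From the deposited intensity, log2 levels minus each array's 75th percentile over non-control probes were computed, with flagged spots left out and repeat spots averaged. Each gene was represented by its brightest tested probe, named through RefSeq accessions. Groups came from the genotype labels. limma 3.58.1 in R 4.3.3 fitted group means to 12968 genes, leaving 3 residual degrees of freedom, with Benjamini-Hochberg adjustment at 0.05, and was tested on simulated data. Promoters were RefSeq windows on GRCm38.p6. The array's design build differs, so probes carry no coordinates. Genes, roles, lists, tests and the rule for named genes were chosen with earlier results of these data known. Values on every array are given for the 10 largest called rises and falls in tg/tg, the 5 largest in tg/wt, and the tested chains of collagens I, III, IV and V and of laminins, except that 1 gene, counted in the totals, is not reported here. The alternatives were normexp, quantile or median scaling, other filters, the mean of probes, fits of the compared groups alone, the series table, a replicate block and leaving out each array. Figures used matplotlib 3.10.9.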

Additional observations from a re-analysis of the deposited data

Results flagged for a closer look

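For 9 matrix genes the difference from WT was called in opposite directions in tg/wt and tg/tg. Both effects share the WT arrays, slide and group cannot be told apart between tg/wt and tg/tg, and the genes were picked for these calls, so the gap between the effects is given as a description and was not tested apart from that choice. The effect in tg/tg minus that in tg/wt was 2.50 for Col5a3 and 1.04 for Col11a2, which were lower in tg/wt and higher in tg/tg. The other 7 were higher in tg/wt and lower in tg/tg, at -1.86 for Col14a1, -1.25 for Lama2, -0.82 for Col4a3, -0.79 for Postn, -0.65 for Col6a2, -0.52 for Sparc and -0.32 for Lamc1. For Col5a3, Col11a2, Col14a1, Lama2 and Lamc1 the tg/wt call was lost whichever WT or tg/wt array was left out and also with the replicate block, where limma adjusted p = 0.0501 to 0.0773, so the opposite directions do not hold as calls there. The tg/wt difference of Col11a2 was 0.035 with the mean of its probes, and the tg/tg call of Lamc1 was lost under 8 alternatives. Col4a3 and Postn kept both calls under every alternative tried, and Col6a2 and Sparc were not followed through the alternatives. A second Sparc probe was not called in tg/wt (0.10, limma adjusted p = 0.162 in a fit of single probes). With 2 arrays a group, no test for single outlying arrays was made.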

How the results depend on the processing

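The counts for tg/tg against WT (21 higher, 23 lower) stayed at 20 to 22 and 22 to 24 under every alternative, and those for tg/tg against tg/wt (18 and 25) at 16 to 20 and 24 to 26. For tg/wt against WT the 4 lower calls became 2 with normexp and 2 with no filter on dim probes. Leaving out each array in turn gave 7 to 19 higher and 0 to 4 lower. With the replicate number as a block, tg/wt gave 13 higher and 1 lower, and tg/tg against WT 21 and 22. The labels do not tie equal numbers to one another, and deviations of equally numbered arrays correlated at 0.129, -0.0480 and -0.0458 between groups, so the numbers were not taken as pairs. Of called genes followed one by one, 34 of 36 kept their call under every alternative in tg/tg against WT, 6 of 18 in tg/wt against WT and 31 of 34 in tg/tg against tg/wt. A called difference changed sign for Col11a2 in tg/wt against WT with the mean of a gene's probes (0.035, limma adjusted p = 0.810), and Col1a2 in tg/tg against tg/wt, not called as reported, was called with the opposite sign with quantile normalization (-0.27). Other signs turned among uncalled differences only, in 3 values of 2 genes for tg/tg against WT, 17 of 8 for tg/wt against WT and 3 of 2 for tg/tg against tg/wt, counted over all alternatives. The cause of these changes was not tested. No scaling moved the median of all genes by over 0.1. Probes of 1 gene among 23 with several tested probes disagreed in sign in tg/tg against WT, and those of 7 in tg/wt against WT. Array number and, for dim genes, signal over background limit these results.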
